A study of Mus musculus with 4 samples.

Results

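The comparison set 2 libraries of mouse bone marrow-derived macrophages side by side, 1 from miR-7 deficient and 1 from wild-type (WT) mice, both treated with LPS at 100 ng/mL for 12 h. The genes compared were those on the 19 autosomes with 10 or more counts in either LPS library, which left 14851 of the 52550 gene identifiers in the files. The mice were C57BL/6, aged 8 to 10 weeks, and 2 further libraries held unstimulated macrophages of each genotype, which served as the background for a difference between the genotypes without LPS. Each of the 4 groups had 1 library, so no difference had a replicate check and no p-value could be given. How the miR-7 deficiency was made, which miR-7 genes it removed, the sex of the mice and the number of mice behind each library are not given in the labels.

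miR-7 is a small RNA whose seed, the short stretch near its 5′ end, pairs with sites in the 3′ untranslated regions (UTRs) of mRNAs and lowers their stability and translation. LPS, a component of the bacterial outer membrane, is sensed by the receptor TLR4 and switches macrophages to cytokine and interferon-response genes. It also raises HIF-1α, the oxygen-regulated transcription factor that drives glycolysis and the genes that cells induce in hypoxia. Macrophages differentiated from bone marrow are a standard model of this response.

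The 2 mature miR-7 forms of the mouse are shown 5′ to 3′ with the seed, bases 2 to 8, in capitals, because it defines the sites examined further on; the sequences are RefSeq's (GRCm38.p6). Both forms share the same seed.
mmu-miR-7a-5p: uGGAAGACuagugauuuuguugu
mmu-miR-7b-5p: uGGAAGACuugugauuuuguuguu
The hairpin gene Mir7-1 lies in an intron of Hnrnpk on chromosome 13 (GRCm38, 58392779 to 58392886), Mir7-2 on chromosome 7 (78888277 to 78888373) and Mir7b on chromosome 17 (56242988 to 56243098). Poly(A) libraries do not measure the mature microRNA. Mir7-1 had 15 counts in WT unstimulated, 10 in WT LPS, 7 in miR-7 deficient unstimulated and 7 in miR-7 deficient LPS macrophages, and Mir7-2 and Mir7b had 0 in each library. These counts do not check the genotype labels. Hnrnpk, the host gene, which shares exonic bases with a neighbour and encodes an RNA-binding protein, was at 213 CPM (reads per 1e6, scaled as given next) in WT LPS and 183 in miR-7 deficient LPS macrophages.

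Library totals lay between 33937823 and 42074624 counts. Values are given as CPM after scaling by edgeR's TMM factors, and a ratio is the miR-7 deficient library over the WT library on the log2 scale with its exact 95% counting interval. A gene was counted as higher or lower when that whole interval lay beyond 2-fold, and the interval covers counting error only, not variation between mice or cultures. All 14 macrophage markers examined, among them Adgre1 and Lyz2, were detected in both LPS libraries, with a summed level of 13995 CPM in WT and 15754 in miR-7 deficient macrophages. T cell, B cell and NK cell markers summed to at most 4.22 CPM in either LPS library, with Cd3d at 0. Neutrophil markers summed to 46.7 CPM in WT and 50.3 in miR-7 deficient LPS macrophages. Mast cell and basophil markers summed to 18.2 and 5.95, with Mcpt8 and Fcer1a at 0 in both. Of the latter markers, Cpa3 (7.36 and 0.641 CPM) and Gata2 (6.7 and 2.59) were lower, and Kit (3.89 and 2.72) was within 2-fold. Fewer cells of a type and less RNA per cell cannot be told apart in such libraries. Xist had 16 counts in the WT and 25701 in the miR-7 deficient LPS library, and the Y-linked Ddx3y had 1537 and 12, a split that the unstimulated libraries shared (Xist at 24 and 28015), so genotype and sex cannot be told apart in any value below. Sex chromosome genes were left out of the comparison.

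With LPS, 608 genes (4.09%) were higher and 704 genes (4.74%) were lower in the miR-7 deficient library, 8.83% in all. Between the unstimulated libraries, 509 of the same genes (3.43%) were higher and 282 (1.9%) lower, 5.33% in all. The middle of the LPS distribution was narrow, with a median log2 ratio of 0.02 and quartiles of -0.32 and 0.36. Of the genes compared, 1671 had under 10 counts in 1 of the LPS libraries, and 350 of those were lower and 367 higher, against 354 and 241 of the 13180 with 10 or more in both. Genes that share exonic bases with a neighbour made up 40.4% of those compared, and the labels do not say whether counting used strand, so each such gene named below is marked as sharing bases and its counts may include a neighbour's reads. Of the genes higher with LPS, 163 were also higher without it (26.8% of the LPS calls and 32% of the unstimulated ones), and of those lower with LPS, 71 were also lower without it (10.1% and 25.2%).

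**Figure D1:**
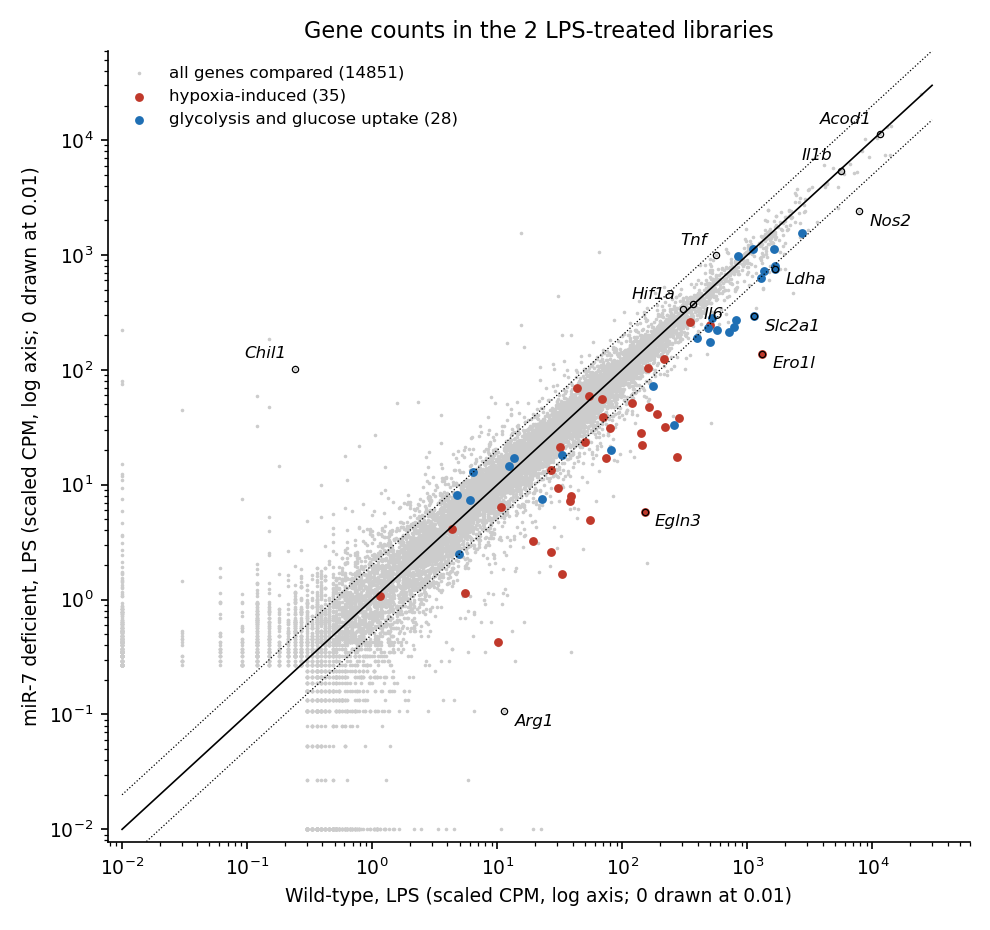
Scaled CPM of each gene compared in the WT LPS library (x axis) and the miR-7 deficient LPS library (y axis), both on log axes, with the line of equal values and dotted lines at 2-fold. The hypoxia-induced genes (red) and glycolysis genes (blue) lie mostly below the line, as Egln3 does at 151 against 5.82 CPM, while Il1b (sharing bases) and Acod1 lie on it.

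Genes known to be induced in hypoxia stood lowest among the lists examined. Of 35 compared members outside glycolysis, 22 (62.9%, against 4.74% of all genes compared) were lower in miR-7 deficient LPS macrophages and 0 were higher. The median log2 ratio was -1.79. Without LPS the same 35 had a median of -0.04, with 3 lower and 1 higher. The list was fixed with earlier results of these data known, so its count describes these libraries and is no independent evidence.

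Egln3, an oxygen-sensing prolyl hydroxylase that marks HIF-1α for degradation and is itself induced by HIF, was at 2.44 CPM in WT unstimulated, 151 in WT LPS, 0.612 in miR-7 deficient unstimulated and 5.82 in miR-7 deficient LPS macrophages. The WT LPS library was the one high value, and the LPS pair differed 25.9-fold (log2 ratio -4.69, interval -4.90 to -4.50). Egln1, the main HIF prolyl hydroxylase, was at 34.5, 188, 35.2 and 41.1 CPM in the same order of libraries, which is kept below. Its unstimulated values differed 1.02-fold and the LPS value of the miR-7 deficient library was 4.58-fold lower. Of the transcription factor's own subunits, Hif1a (sharing bases) was at 308 and 336 CPM and Arnt at 36.5 and 37.4 CPM in the WT and miR-7 deficient LPS libraries. Epas1, which encodes the alternative subunit HIF-2α, was at 21, 0.271, 23.7 and 1.01 CPM, low in both LPS libraries on 9 and 38 counts, with a log2 ratio of 1.90 (interval 0.83 to 3.14) that did not pass the limit. Vhl, which encodes the ubiquitin ligase subunit that recognizes hydroxylated HIF-1α, was at 89.3 and 51 CPM, a difference within 2-fold.

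Ero1l, the endoplasmic reticulum oxidase that forms disulfide bonds, had the highest WT LPS level of the 22 lower genes of the list, at 56.7, 1302, 66 and 138 CPM. The WT library was 23-fold higher with LPS than without it and the miR-7 deficient library 2.09-fold, and the LPS pair differed 9.43-fold (log2 ratio -3.24, interval -3.28 to -3.20). Bnip3 (sharing bases), which encodes a mitochondrial receptor for mitophagy, was at 13.1, 283, 13.6 and 38.2 CPM. Its antisense neighbour Gm45507 had 998 counts in the WT and 106 in the miR-7 deficient LPS library, beside 9374 and 1431 for Bnip3. Vegfa, the angiogenic growth factor, was at 24.3, 218, 15.6 and 31.9 CPM, 6.84-fold lower in the miR-7 deficient LPS library.

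Adm, which encodes the vasoactive peptide adrenomedullin, was at 0.256, 33.1, 0 and 1.68 CPM, 19.7-fold lower in the miR-7 deficient LPS library. It was at 0 counts in the unstimulated miR-7 deficient library. The collagen prolyl hydroxylase P4ha2 was at 1.35, 54.7, 1.02 and 4.91 CPM, and P4ha1, its paralogue, at 55.5, 506, 57.8 and 246 CPM. The first differed 11.1-fold and the second only 2.06-fold. The lipid droplet protein gene Hilpda (12.9, 144, 10.9 and 22.2 CPM) was 6.48-fold lower with LPS, and Ddit4, an inhibitor of mTORC1 signalling, was 4.88-fold lower.

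The histone demethylases Kdm3a (119 and 51.8 CPM with LPS) and Kdm4b (79.3 and 31 CPM), were 2.29-fold and 2.56-fold lower. Ak4, a mitochondrial adenylate kinase, was at 1.05, 73.6, 4.31 and 17.1 CPM, higher in the miR-7 deficient library without LPS and lower with it. Members near the 2-fold limit were P4ha1 just beyond it (interval -1.08 to -1.01) and Jmjd6, which shares bases, just inside it (-1.21 to -0.98). Above 0 stood 2 members, Cited2 (log2 ratio 0.12) and Rab20 (0.68, sharing bases). Counted within each genotype, 25 of the 35 members were higher with LPS than without it in WT, against 16.8% of all genes compared, and 11 were in miR-7 deficient macrophages, against 14.2%. Lower with LPS were 1 member in WT (11% of all genes) and 4 in miR-7 deficient macrophages (9.74% of all genes). The median log2 change with LPS over the list was 1.93 in WT and 0.48 in miR-7 deficient macrophages.

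**Figure D2:**
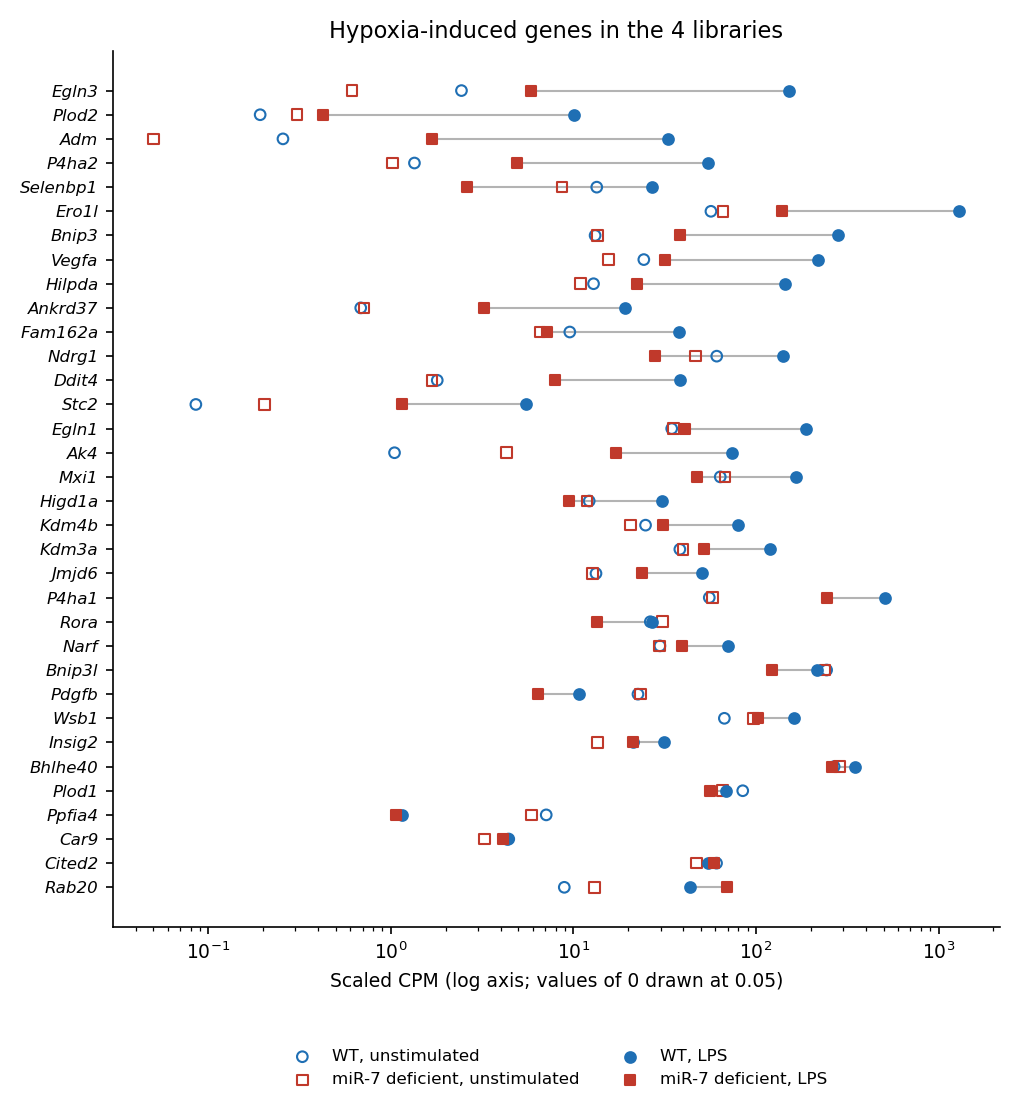
Scaled CPM (log axis) of 34 of the 35 hypoxia-induced genes in the 4 libraries, ordered by the LPS ratio, with open symbols for unstimulated and filled symbols for LPS-treated macrophages and a grey line joining the LPS pair. For most genes the WT LPS value stands apart to the right while the other 3 values lie closer together, as for Ero1l at 1302 against 56.7, 66 and 138 CPM.

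The promoters of 2 of these genes and of Ldha, from the glycolysis list, are shown because HIF binds the core letters ACGTG or GCGTG. The windows run from 250 bases before to 50 after a RefSeq transcription start (GRCm38.p6), 5′ to 3′ on the gene's strand, with matches on either strand in capitals. They were chosen after the values were seen. Egln3 was taken for its ratio, Ldha for the highest number of matches in either list with each strand counted, and Bnip3 for several matches in a gene described here.
Egln3, chr12:54203825-54204124, minus strand: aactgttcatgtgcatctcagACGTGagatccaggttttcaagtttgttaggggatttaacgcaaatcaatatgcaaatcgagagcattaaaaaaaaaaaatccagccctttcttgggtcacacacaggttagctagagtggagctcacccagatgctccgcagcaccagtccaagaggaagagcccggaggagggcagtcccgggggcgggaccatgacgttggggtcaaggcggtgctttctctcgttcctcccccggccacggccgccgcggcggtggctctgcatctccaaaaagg
Bnip3, chr7:138909457-138909756, minus strand: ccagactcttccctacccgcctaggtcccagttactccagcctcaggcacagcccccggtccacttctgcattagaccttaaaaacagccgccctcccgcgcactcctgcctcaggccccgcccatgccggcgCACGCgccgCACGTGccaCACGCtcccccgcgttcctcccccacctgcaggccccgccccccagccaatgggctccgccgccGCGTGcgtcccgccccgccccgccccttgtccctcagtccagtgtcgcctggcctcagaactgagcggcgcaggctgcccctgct
Ldha, chr7:46845554-46845853, plus strand: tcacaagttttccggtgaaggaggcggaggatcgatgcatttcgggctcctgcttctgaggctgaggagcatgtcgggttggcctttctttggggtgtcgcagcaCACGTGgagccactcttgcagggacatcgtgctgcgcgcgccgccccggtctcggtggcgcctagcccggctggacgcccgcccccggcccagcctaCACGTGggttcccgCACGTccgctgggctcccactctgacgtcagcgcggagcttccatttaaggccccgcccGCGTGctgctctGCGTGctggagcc
The Egln3 window held 1 match, the Bnip3 window 5 and the Ldha window 7. CACGTG matches on both strands and counts as 2, so Bnip3 and Ldha show fewer stretches in capitals than matches. Promoter sequences were matched for 28 of the 35 hypoxia-induced genes and 27 of the 28 glycolysis genes. At least 1 match stood in 82.9% of the 41 hypoxia windows and 75% of the 40 glycolysis windows, against 60.7% of the 12364 windows of all protein-coding genes compared. ACGTG alone stood in 56.1%, 45% and 25.1%. Among list members lower with LPS, 85.2% of 27 hypoxia windows and 71.4% of 21 glycolysis windows held a match of either kind. Over all protein-coding genes lower with LPS, 54.6% of 491 windows did. Both lists hold kinds of genes that HIF drives, so more matches were expected whatever the ratios here, and a cause was not tested. A match is a description of letters and not a binding site.

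Glycolysis and glucose uptake followed. Of 28 compared genes, 15 (53.6%, against 4.74% of all genes compared) were lower and 0 higher in miR-7 deficient LPS macrophages. The median log2 ratio was -1.05. Without LPS, 0 of the 28 were beyond 2-fold and the median was -0.20. Leaving out genes that share bases with a neighbour, 9 were lower. The steps of the pathway are given in order.

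At uptake, Slc2a1 (sharing bases), the main glucose transporter GLUT1, was at 113, 1133, 128 and 292 CPM. It was 3.88-fold lower with LPS (log2 ratio -1.96, interval -1.99 to -1.92), with unstimulated values that differed only 1.13-fold. Slc2a6, a lysosomal hexose transporter induced by LPS, was at 102, 834, 140 and 988 CPM and was not lower. The first enzyme of the pathway, hexokinase, split by isoform. Hk2, the inducible form, was at 81.1, 816, 73.6 and 272 CPM, and Hk3, which shares bases, at 520, 1116, 376 and 1129 CPM. Hk2 differed 3-fold between the LPS libraries and Hk3 1.01-fold.

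In the middle of the pathway, Pfkfb3, whose product makes the activator of phosphofructokinase, was at 58.5, 499, 35.5 and 175 CPM, 2.85-fold lower. Gpi1, Pfkl, Tpi1 and Gapdh were lower by 2.59-fold, 2.1-fold, 3.33-fold and 2.05-fold, and all but Pfkl share bases with a neighbour. Aldoa (1621 and 1128 CPM with LPS, sharing bases) and Pkm (2732 and 1553 CPM, sharing bases) were within 2-fold. Eno1 was at 590, 1677, 511 and 801 CPM, and Eno2, its scarce paralogue, at 6.9, 6.42, 8.13 and 12.9 CPM with the highest ratio of the list (log2 1.01, within the limit by its interval).

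At the exit of the pathway, Ldha, which makes lactate from pyruvate, was at 576, 1654, 472 and 749 CPM, 2.21-fold lower with LPS. The lactate exporters Slc16a3 (93.6, 714, 86.1 and 213 CPM) and Slc16a1 (16.4, 22.6, 17.4 and 7.5 CPM) were 3.35-fold and 3.01-fold lower. Pdk1, the kinase that keeps pyruvate out of the mitochondrion, was at 45.4, 81.2, 30.5 and 20 CPM, 4.06-fold lower. Glycogen genes were included in the list, and Gys1, glycogen synthase, stood lowest of all at 21.8, 258, 16.8 and 33.2 CPM. Gys1 shares bases with Ruvbl2, which had 1637 counts in the WT and 707 in the miR-7 deficient LPS library. Pgk1 is X-linked and was not compared, and it had 43631 counts in the WT and 17857 in the miR-7 deficient LPS library. Within each genotype, 17 of the 28 genes were higher with LPS in WT, against 16.8% of all genes compared. In miR-7 deficient macrophages 9 were, against 14.2%. Lower with LPS were 3 genes in WT (11% of all genes) and 3 in miR-7 deficient macrophages (9.74% of all genes).

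**Figure D3:**
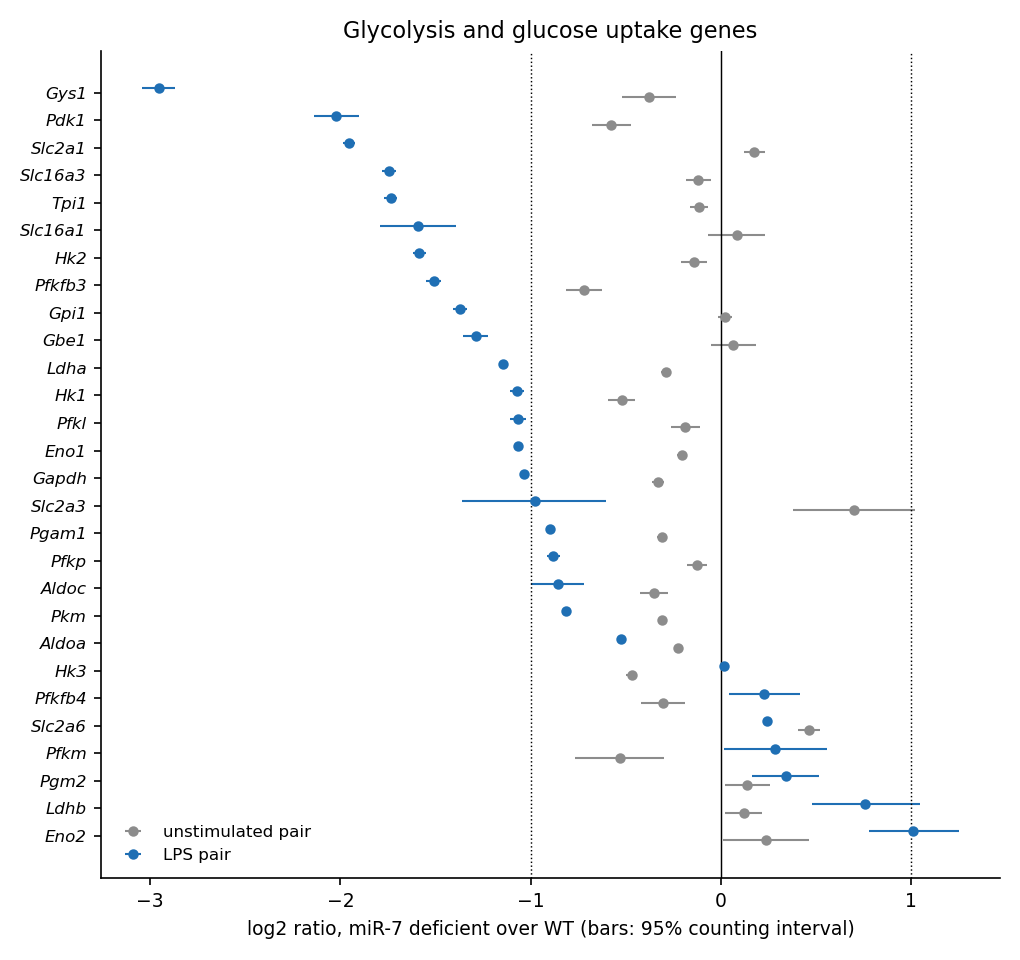
Log2 ratio of the miR-7 deficient over the WT library for 28 glycolysis and glucose uptake genes in the LPS pair (blue) and the unstimulated pair (grey), with bars for the 95% counting interval and dotted lines at 2-fold. The LPS values run from -2.95 for Gys1 to 1.01 for Eno2, and the unstimulated values stay between the dotted lines.

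Mitochondrial metabolism lists held no gene beyond the limit with LPS. Of 25 itaconate and TCA cycle genes and 31 respiratory chain subunits, 0 were beyond 2-fold in either direction, against 8.83% of all genes compared, with median log2 ratios of 0.06 and 0.09. Pcx, which feeds pyruvate into the TCA cycle as oxaloacetate, stood lowest of the first list at 6.78, 68.2, 12.9 and 39.6 CPM (log2 ratio -0.78, interval -0.88 to -0.69). Acod1, which makes itaconate from a TCA intermediate and is among the strongest LPS-induced genes, was at 179, 11469, 263 and 11256 CPM. Its LPS values differed 1.02-fold.

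Arginine metabolism held a few large differences, while the median log2 ratio of the list was -0.02. Nos2, the inducible nitric oxide synthase, was at 93, 7873, 3.77 and 2393 CPM, so the miR-7 deficient library was lower both without LPS (24.7-fold) and with it (3.29-fold, log2 interval -1.73 to -1.71). Arg1, which competes for the same substrate, was at 1.03, 11.4, 0 and 0.107 CPM, on 48, 377, 0 and 4 counts. Slc7a2 (sharing bases), the cationic amino acid transporter that brings in arginine, was at 5732 and 5773 CPM with LPS. Gatm, which uses arginine to make a creatine precursor, went the other way at 19.3, 22, 61.7 and 105 CPM, 4.8-fold higher. Of 19 genes compared on this list, 2 were lower and 1 higher (10.5% and 5.26%, against 4.74% and 4.09% of all genes compared). Outside the list, Ccl5 (64.9 CPM in WT and 4.94 in miR-7 deficient macrophages), Il12b (32.3 and 3.57) and Ptgs2 (31.1 and 3.24) were also lower without LPS. Acod1 (179 and 263) and Tnf (19.8 and 42.4) stood higher. With 1 unstimulated library per genotype, a genotype difference and a trait of the WT library cannot be told apart, and this was not tested.

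Of 36 cytokines and growth factors compared, 2 were higher and 2 lower, near the shares of all genes, and the median log2 ratio was -0.01. Il6 was at 3.46, 369, 0.153 and 374 CPM, and Il1b (sharing bases) at 73.1, 5566, 13 and 5406 CPM. Both were lower in the unstimulated miR-7 deficient library and equal within 1.03-fold with LPS. As for Nos2, a genotype difference without LPS and a trait of the unstimulated WT library cannot be told apart, and this was not tested. Tnf was at 19.8, 557, 42.4 and 994 CPM, 1.79-fold higher with LPS and inside the limit. Il12a, a subunit of interleukin 12, was at 0.855, 46.8, 0.102 and 117 CPM and was 2.49-fold higher with LPS, while Il12b, the shared subunit, was at 2448 and 3329 CPM. The anti-inflammatory cytokine Il10 was 2.35-fold lower at 0.427, 19.7, 0 and 8.41 CPM. Csf2 (sharing bases) and Il19, the other two beyond the limit, were at most 1.36 CPM in any library. Ifnb1 was at 0.332 and 0.614 CPM with LPS, too few counts to place.

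Chemokines gave 0 higher and 2 lower of 23 (8.7% lower, against 4.74% of all genes compared). Ccl9 was at 644, 1327, 631 and 508 CPM, 2.61-fold lower, and Ccl24 was scarce (2.47 and 0.481 CPM with LPS). Ccl5 (5296 and 3913 CPM) and Cxcl10 (958 and 1386 CPM, sharing bases) were within 2-fold. Among the receptors, Ccr7, which guides dendritic cells to lymph nodes, was at 4.4, 148, 4.08 and 316 CPM, 2.14-fold higher. Of the 7 dendritic cell markers, Ccr7 made up most of the summed level (159 CPM in WT and 325 in miR-7 deficient LPS macrophages), and Flt3 was at 0 in both.

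Interferon-stimulated genes had shares beyond 2-fold with LPS near those of genes at 10 CPM or more. Of 55 compared, 1 was higher and 1 lower (1.82% each), and the median log2 ratio was 0.11. The shares higher and lower were 1.71% and 2.92% over genes at 10 CPM or more in either LPS library. They were 4.09% and 4.74% over all genes compared. All 55 were higher with LPS than without it in both genotypes. Slfn8, a Schlafen family gene, was the lower one at 19.9, 513, 3.36 and 34.7 CPM, and Xaf1, a regulator of cell death, the higher one at 8.85, 217, 21.2 and 524 CPM. Each stood on the same side without LPS. Between the unstimulated libraries 14 of the 55 were lower and 1 higher, with a median of -0.67. Here too, a genotype difference and a trait of the unstimulated WT library cannot be told apart. Isg15 (18.8, 1344, 5.15 and 1393 CPM) and Irf7 (28, 1080, 9.46 and 1164 CPM, sharing bases) were among the 14 and within 2-fold with LPS, while Ifit1 (24.3, 2230, 14.6 and 2107 CPM) was within 2-fold in both pairs.

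The sensing pathway gave 4 lower and 1 higher of 35 (11.4% and 2.86%, against 4.74% and 4.09% of all genes compared). Tlr4, the LPS receptor, was at 14.5, 44.5, 11.8 and 6.09 CPM, 7.3-fold lower with LPS (log2 ratio -2.87, interval -3.08 to -2.67) and within 2-fold without it. Its co-receptors Cd14 (908 and 971 CPM) and Ly96 (9.17 and 7.66 CPM) were within 2-fold. The ubiquitin ligases Traf6 (226 and 98 CPM) and Traf3 (74.5 and 33.5 CPM) were 2.3-fold and 2.22-fold lower, as was the transcription factor Jun (92.3 and 42.3 CPM, sharing bases) at 2.18-fold. Tlr9, the receptor for bacterial DNA, was 2.86-fold higher at 19.3, 9.71, 20.9 and 27.8 CPM. Among 27 regulators of NF-kB signalling, 1 was lower and 1 higher (3.7% each), near the shares of all genes compared (4.74% and 4.09%). Ier3 (316 and 102 CPM) was lower and Dusp2 (1.12 and 3.71 CPM) higher, while Nfkbia, Tnfaip3 and Nfkb1 had log2 ratios of 0.02, -0.02 and 0.17. In the inflammasome list, 2 of 21 were higher (9.52%, against 4.09% of all genes compared). They were Nlrp1b at 18.5, 1.27, 14.5 and 14.3 CPM and Nek7 (sharing bases) at 144, 58, 49.4 and 175 CPM. For Nlrp1b the WT LPS library was the one low value.

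**Figure D4:**
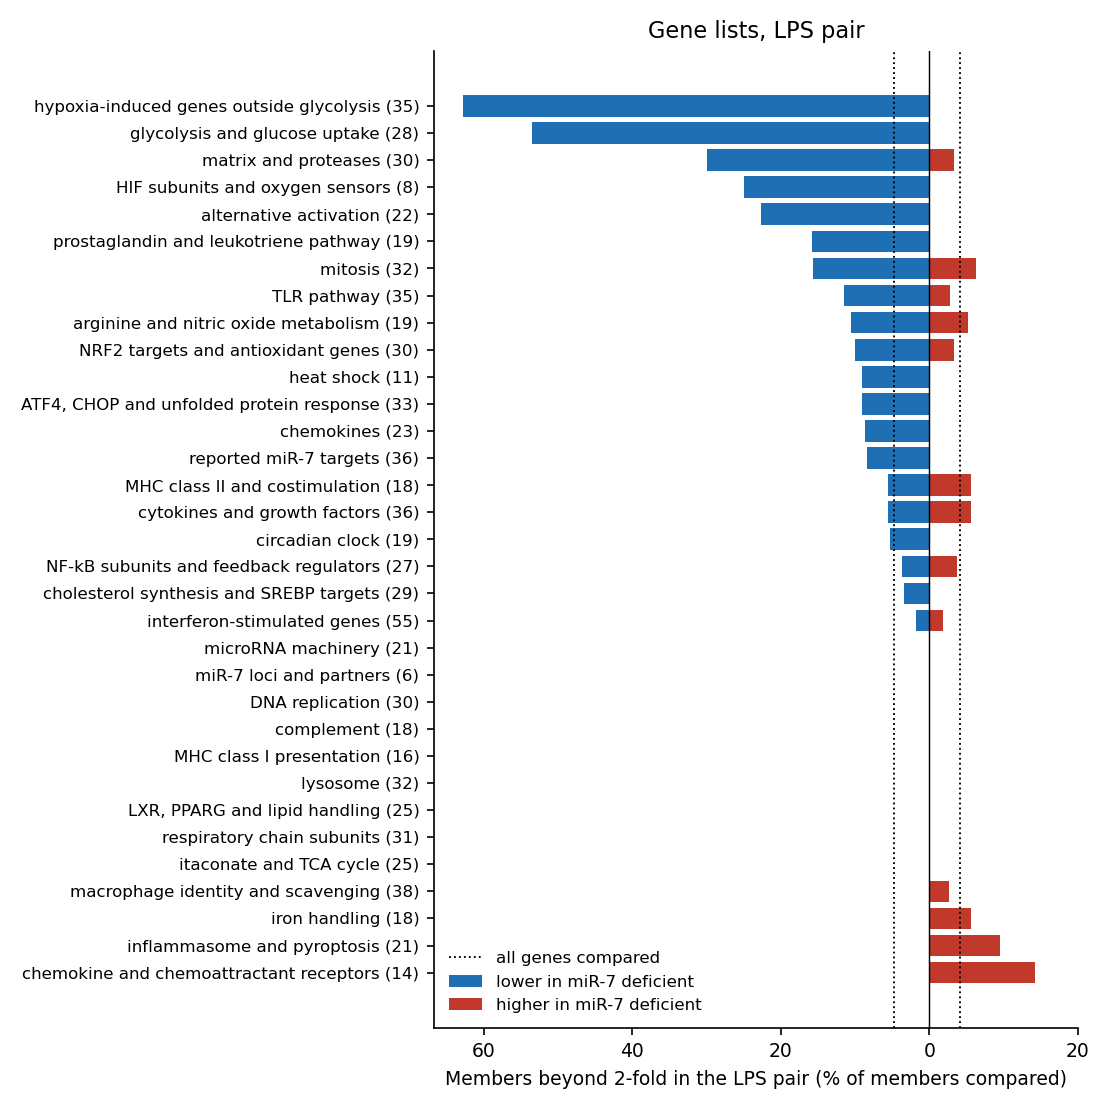
Percent of the compared members of each gene list beyond 2-fold lower (blue, left) or higher (red, right) in the miR-7 deficient LPS library, with the number of members in brackets and dotted lines at the shares of all genes compared (4.74% lower, 4.09% higher). The hypoxia-induced list reaches 62.9% lower and the glycolysis list 53.6%, and 9 lists have no member beyond 2-fold.

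Matrix and protease genes had the next largest share, with 9 of 30 lower and 1 higher. These were 30% and 3.33%, against 4.74% and 4.09% of all genes compared, and the median log2 ratio was -0.42. Among the lower ones were Plat and F3, both of the clotting system, the collagenases and gelatinases Mmp13 (235, 1997, 192 and 755 CPM) and Mmp2 (8.83, 56.8, 6.6 and 15.2 CPM), the matrix protein gene Tnc (sharing bases), and Mmp3, Timp3 (sharing bases) and Thbd, which had 0 counts in the miR-7 deficient LPS library and at most 0.724 CPM in the WT one. F3, tissue factor, was at 2.65, 20.2, 9.89 and 4.83 CPM and Tnc at 0.406, 20.3, 4.03 and 6.76 CPM, both higher in the miR-7 deficient library without LPS and lower with it.

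Alternative activation genes gave 5 lower of 22 and 0 higher (22.7% lower, against 4.74% of all genes compared). The lower ones were Arg1, the chitinase-like genes Chil3 (2582, 2327, 727 and 465 CPM) and Chil4, the lectin gene Mgl2 (47.2, 52.5, 24.1 and 10.6 CPM) and Ccl24. Chil3 was lower in both pairs, and it made up most of the monocyte marker sum (2436 CPM in WT and 619 in miR-7 deficient LPS macrophages). Ly6c2 of that list was at 105 CPM in WT and 150 in miR-7 deficient LPS macrophages. The mannose receptor gene Mrc1 (83.4 and 50.4 CPM with LPS), Tgm2 (1614 and 1122 CPM, sharing bases) and Msr1 (745 and 618 CPM) were within 2-fold.

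Antioxidant genes leaned lower, with 21 of 30 NRF2 targets below 0. Shares beyond the limit were 10% lower and 3.33% higher, against 4.74% and 4.09% of all genes compared. Beyond the limit 3 were lower, the metallothioneins Mt2 (11.5, 115, 9.69 and 19.6 CPM, sharing bases) and Mt1 (64.6, 127, 61.8 and 34.6 CPM) and the haem oxygenase Hmox1 (393, 5334, 357 and 2561 CPM), and Osgin1 was higher (13.4, 4.43, 4.13 and 18.6 CPM). Hmox1 was just beyond the limit (interval -1.07 to -1.05). Of 33 unfolded protein response genes, 3 were lower, Trib3, Sesn2 and Vldlr, and of 11 heat shock genes Hspa1a (150 and 67.2 CPM with LPS, sharing bases). In the prostaglandin and leukotriene list, Alox5 (53.4, 3.53, 37.9 and 0.854 CPM), Ptgs1 (sharing bases) and the scarce Ptgis (sharing bases) were lower, and Ptgs2, the inducible cyclooxygenase, was at 2619 and 1896 CPM with LPS.

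Of 16 MHC class I presentation genes, 15 were above 0 and 0 beyond 2-fold. Of 18 MHC class II and costimulation genes, 11 were above 0 and 7 below, with 1 higher and 1 lower. H2-Ab1 was at 1250, 1458, 1975 and 2458 CPM and Cd74 (sharing bases), the invariant chain, at 3485, 4084, 5337 and 6106 CPM, each higher in the miR-7 deficient library of both pairs by 1.5-fold to 1.69-fold. The 2 beyond the limit were the costimulatory ligand Icosl, 2.76-fold higher (36.4 and 101 CPM), and the checkpoint gene Vsir, 2.79-fold lower (36.8 and 13.2 CPM). Lysosome, complement, DNA replication, LXR and lipid handling, and microRNA machinery lists had 0 members beyond 2-fold. Mitosis genes gave 5 lower and 2 higher of 32 (15.6% and 6.25%, against 4.74% and 4.09% of all genes compared). Those 7 were at most 5.82 CPM with LPS. Cholesterol synthesis gave 1 lower of 29 (Scd2, sharing bases), the circadian list 1 lower of 19 (Nfil3), iron handling 1 higher of 18 (Steap3) and the macrophage list 1 higher of 38 (Cx3cr1, at 0.854 CPM, sharing bases).

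The series' design text gives the search for coding genes lowered by miR-7 as the use of the counts, so genes reported as miR-7 targets and genes with seed sites were set apart. Of 36 reported targets compared, 0 were higher with LPS and 3 (8.33%) were lower, against 4.09% and 4.74% of all genes compared. The median log2 ratio was -0.08. Among the lower ones were Tlr4 and Vdac1, the mitochondrial outer membrane channel (140, 215, 122 and 91.3 CPM). Above 0 stood 15 of the 36. Hoxb3 had the highest ratio (log2 1.22, interval 0.54 to 1.95, sharing bases) on 0.754 and 1.76 CPM. Rela and Mtor had log2 ratios of 0.15 and 0.16.

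The sites of 3 of these genes are shown, from GENCODE M21 transcripts (GRCm38), with the site in capitals. It holds the letters that pair with the seed and, in Vdac1 and Tlr4, a last A opposite base 1, which lies outside the seed. Vdac1 and Tlr4 were lower with LPS, and Rela is shown for comparison.
Vdac1, chr11:52389295-52389324, plus strand: tacattatagaGTCTTCCAttttgtgtgga
Tlr4, chr4:66841906-66841934, plus strand: ttccaatttcaTCTTCCAttttatgtcat
Rela, chr19:5647748-5647776, plus strand: tactatcaagtGTCTTCCtccacgcggat
Vdac1 carries the full 8-base match GTCTTCCA, Rela GTCTTCC and Tlr4 TCTTCCA. Of the 36 targets, 29 had at least 1 such site in their longest annotated 3′ UTR, with a median log2 ratio of -0.08, and the 7 without had -0.12.

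Over all protein-coding genes compared with a 3′ UTR (12084), the median log2 ratio with LPS was 0.027 for the 8945 genes without a site, 0.003 for the 2358 with 1 site and -0.013 for the 781 with 2 or more. The shares higher were 3.26%, 2.71% and 3.07%. Genes with more sites have longer 3′ UTRs (median 875, 1944.5 and 3448 bases). Among genes with the longest 3′ UTRs, over 1818 bases, the medians were -0.015, -0.027 and -0.017. Without LPS the 3 medians were -0.011, 0.028 and 0.053.

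**Figure D5:**
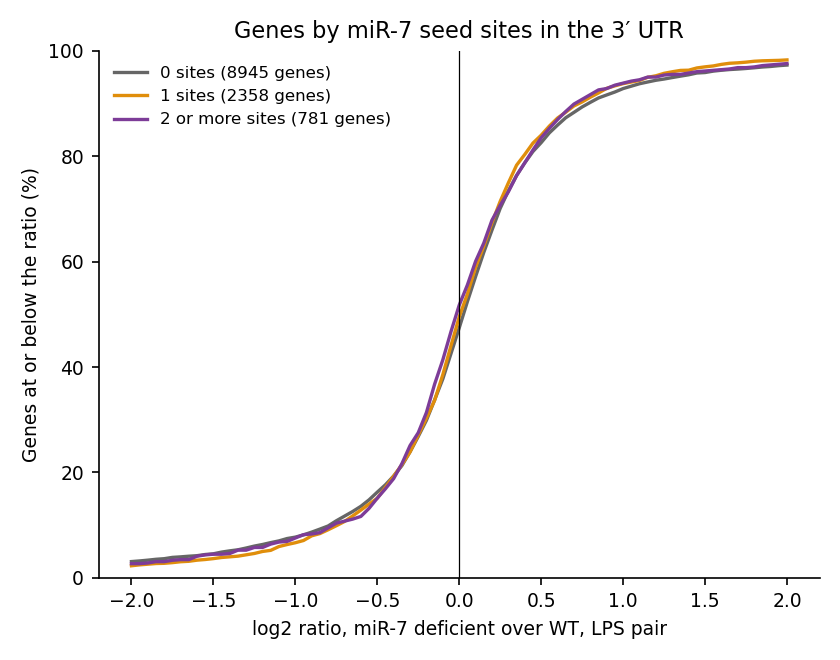
Percent of protein-coding genes at or below each log2 ratio (miR-7 deficient over WT, LPS pair) for genes with 0, 1 and 2 or more miR-7 seed sites in the longest annotated 3′ UTR. The 3 curves nearly coincide, with medians of 0.027, 0.003 and -0.013.

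The genes at the extremes were ranked by the bound of the interval nearest 0. Among the lowest, Glrp1 had 108 and 739 counts in the WT libraries and 0 in both miR-7 deficient ones, and its log2 ratio with LPS lay below -7.82 by its interval. Cyp4f18 (sharing bases), a cytochrome that inactivates leukotriene B4, had 1344, 644, 32 and 0 counts, a log2 ratio below -7.62 by its interval. Ear6, of the eosinophil-associated ribonuclease family, had 1781, 1297, 0 and 13 counts, while eosinophil markers summed to 8.44 CPM in WT and 11.2 in miR-7 deficient LPS macrophages. These 3 genes were lower in both pairs, as were Arg1, Cysltr2 (2.24, 8.02, 0.255 and 0.347 CPM), a leukotriene receptor, and Bcar1 (0.513, 26.4, 0 and 1.98 CPM), an adaptor of integrin signalling. Pagr1a (sharing bases) and Bub1 were under 11 CPM in each library, and Sh3d19 was at 11.6, 21.4, 5.56 and 1.74 CPM. Pagr1a had 338 counts in the WT and 15 in the miR-7 deficient LPS library. Of the genes it shares bases with on the same strand, Gm42742 went the other way (151 and 500 counts) and Pagr1b had 36 and 0. How reads were split among them was not tested. Egln3, Plod2 (sharing bases), Adm and P4ha2 of the hypoxia-induced list were also among the 15 lowest. Of these, Egln3 (unstimulated log2 ratio -1.99) and Adm were lower without LPS too. Adm had 12 counts in the unstimulated WT library and 0 in the miR-7 deficient one.

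Among the highest, Chil1, a chitinase-like secreted protein, was at 0, 0.241, 5.45 and 102 CPM, higher in both pairs. Coch (0, 1.06, 0.127 and 27.2 CPM) and the anion exchanger Slc26a4 (0, 0.633, 0 and 10.9 CPM) were high only in the miR-7 deficient LPS library among these 4. Fam177a had 10, 0, 1155 and 2977 counts, a log2 ratio above 9.48 by its interval, and Kif21a, a kinesin, had 12, 0, 200 and 284. Another group stood low in the WT LPS library alone. Kctd12 (sharing bases) had 38081, 0, 34123 and 8286 counts, and its antisense neighbour Gm26778 had 28469, 3670, 20770 and 5181. Kctd12 was 1 of 4 genes with at most 3 counts in the WT LPS library and 5 CPM or more in each of the other 3, against 1 such gene in the unstimulated WT library, 2 in the unstimulated miR-7 deficient one and 0 in its LPS counterpart. Whether the libraries were counted with the same annotation and settings is not given in the sources used here, so a 0 in 1 library may not be a level, and this was not tested. Usf3 was at 41.8, 3.53, 44.8 and 40.5 CPM and Sla2 (sharing bases) at 26.6, 0.151, 22.4 and 47.7 CPM. Nrros, a regulator of reactive oxygen and latent TGF-β in macrophages, was at 261, 11.9, 83.9 and 171 CPM. For Rnd2 (sharing bases, 97.9, 2.32, 4.46 and 52.1 CPM) and Lrrc8d (sharing bases, 154, 16.3, 10.6 and 159 CPM) the high libraries were WT unstimulated and miR-7 deficient LPS. Cacna1a, Slc26a10 and Ftl1-ps1, all sharing bases, complete the list with Nlrp1b.

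Among noncoding genes with an official name, the highest were ferritin light chain copies and a ribosomal protein copy. Ftl2-ps (sharing bases) was at 19.8, 15.6, 1948 and 1568 CPM, and Ftl1-ps2 (sharing bases), Mir692-2, which lies within Ftl2-ps, and Rps3a3 were likewise high in both miR-7 deficient libraries and low in both WT ones. Ftl1 (sharing bases), the ferritin gene that these copies resemble, was at 7563 CPM in WT and 5287 in miR-7 deficient LPS macrophages. How reads with several matches were counted is not given in the sources used here, so the split between a gene and its copies is uncertain. Cd1d2 was at 0.15, 0.784, 2.6 and 21.8 CPM. Among the lowest noncoding genes were copies of glycolysis genes, Pgk1-rs7 (15.5, 57.1, 11.8 and 19.4 CPM) and Pgam1-ps2 (63.1, 122, 49.7 and 57 CPM). Pgam1 itself was at 1361 CPM in WT and 730 in miR-7 deficient LPS macrophages. Slfn5os (sharing bases) was at 2.31, 123, 13.6 and 17.4 CPM, while Slfn5, which it overlaps on the other strand, had 48743 counts in the WT and 52260 in the miR-7 deficient LPS library. Dubr and H2-T-ps, both sharing bases, were the remaining 2 of the 5 lowest.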

How the data were processed

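The deposited files held raw gene counts, 1 file per library, made by the authors. Per the labels' protocols and the series' design text, RNA was extracted with TRIzol, poly(A)-enriched and sequenced on a HiSeq 2000, with Casava v1.8.2, Cutadapt, TopHat v2.0.13 with Bowtie2, and Partek for exons. HTSeq and the build mm8 come from the submitters' processing notes. The sources used here do not give strand use, the handling of multi-mapped reads or the annotation release. The members and gene lists were chosen with earlier results of these data known.

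Identifiers were matched to GENCODE M21 (GRCm38) without version, 99.7% of 52550. Totals were scaled by TMM factors over the 4 libraries (edgeR 4.0.16, genes at 1 CPM or more in 2 libraries). The ratio of 2 libraries has an exact Clopper-Pearson 95% interval from the counts, and a gene was called where the interval lay beyond 2-fold. PCR duplicates are not marked, so intervals cover counting error only. The call was tested on simulated data. These held counting error only, so variation between mice or cultures was not tested. With 1 library per group there is no test, and these differences compare libraries. No 2 libraries held identical values.

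Named genes were the 15 highest and 15 lowest autosomal coding genes with 5 CPM or more in an LPS library by the interval bound nearest 0, 5 and 5 noncoding genes, up to 6 members per list, reported miR-7 targets and a fixed set of macrophage, miR-7 and hypoxia genes. Others named were chosen after their values were seen, and a few that the rule names are not reported here. Seed sites were sought in each gene's longest 3′ UTR. Promoters and miRNAs are RefSeq's, matched by symbol or synonym. Alternatives were other scalings, filters, thresholds, thinned counts and gene subsets.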

Additional observations from a re-analysis of the deposited data

Results flagged for a closer look

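For 10 of the 838 genes named by rule or on a list, the LPS pair and the unstimulated pair were beyond 2-fold in opposite directions, against 52 of all 14851 genes compared (0.350%). Many of the 838 were picked for an extreme ratio with LPS. With 1 library per group the difference between the pairs was not tested. Values are log2 ratios of the miR-7 deficient over the WT library, first with LPS and then without. Higher with LPS and lower without were Rnd2 (4.49 and -4.46), Nrros (3.84 and -1.64), Lrrc8d (3.28 and -3.86), Osgin1 (2.07 and -1.70), Nek7 (1.59 and -1.55) and Il12a (1.32 and -3.07). Lower with LPS and higher without were Slfn5os (-2.83 and 2.56), Ak4 (-2.11 and 2.04), F3 (-2.06 and 1.90) and Tnc (-1.59 and 3.31). Rnd2, Lrrc8d, Nek7, Slfn5os and Tnc share exonic bases with a neighbouring gene. In Il12a the unstimulated ratio rests on 40 counts in the WT and 4 in the miR-7 deficient library, in Tnc on 19 and 158 and in Ak4 on 49 and 169.

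Sex chromosome genes, which the comparison left out, carried the clearest split of the 4 libraries. Xist had 25701 counts in the miR-7 deficient LPS library and 16 in the WT one. Ddx3y had 1537 counts in the WT LPS library and 12 in the miR-7 deficient one, and Kdm5d and Uty had 419 and 680 in WT and 0 in miR-7 deficient LPS macrophages. Genotype and sex cannot be told apart in these libraries.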

How the results depend on the processing

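No paired analysis was possible because each group had 1 library, and for the same reason no library could be left out. The 608 higher and 704 lower genes became 138 and 236 when 10 CPM or more was required, 1359 and 1378 when the interval was not used, 1164 and 1280 for an interval beyond 1.5-fold, 163 and 236 for one beyond 4-fold, and 388 and 434 without genes that share exonic bases. Among protein-coding genes alone 400 were higher. Fewer genes tested or a different limit is part of each of these alternatives. Counts stayed within 1.5 times under DESeq2 size factors, total counts, TMM factors of the 2 LPS libraries, thinned counts, no count minimum and all chromosomes.

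Of the hypoxia-induced genes 21 to 22 were lower under the 4 scaling and thinning alternatives, and of the glycolysis genes 11 to 15, with medians of -1.81 to -1.72 and -1.07 to -0.98. Leaving out genes that share exonic bases, an alternative chosen after seeing the data, left 15 hypoxia-induced and 9 glycolysis genes lower. Scaling by total counts raised every ratio by 0.07, so lists with a median nearer 0 than that have no set direction, and the lower counts of the cytokine and TLR lists became 1 and 2. The seed site medians stayed between -0.06 and 0.10. Of 1020 values of named genes under the alternatives, 192 fell outside the gene's main counting interval and 0 reversed a called direction. Scaling moved log2 ratios by 0.07 at most, too little to reverse a call beyond 2-fold, so the absence of reversals does not check the scaling. The intervals cover counting error only and not the choice of scaling. Depth limits genes under 10 counts in 1 LPS library.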
